A study of Mus musculus with 6 samples.

Results

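Adipokines are the hormones and signalling proteins that fat tissue secretes. Of 10 adipokine and adipokine receptor genes chosen by name (Adipoq, Adipor1, Adipor2, Cdh13, Lep, Lepr, Retn, Cfd, Rarres2 and Nampt), 9 had a value in microarray data from mouse inguinal white fat, among 30142 genes with a probe set of their own. Cfd was not analysed here. Each of the 9 genes was read by 1 probe set. The study deleted Tfg in fat cells of adult mice and profiled the whole depot. In the 3 KO mice both Tfg alleles were floxed and an Adipoq-ERT2Cre transgene was present, so that tamoxifen activates Cre recombinase in cells that use the adiponectin promoter. The 3 WT mice had the same floxed alleles and no Cre. All were male C57BL/6 animals 2 months old, all received tamoxifen intraperitoneally for 5 days, and their fat was taken 2 weeks later. The labels count the 3 arrays of each group as biological replicates.

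Several features of the model bear on these genes. The control mice lack Cre, so an effect of Cre with tamoxifen and an effect of the deletion cannot be told apart. Cre is driven by the promoter of Adipoq, one of the genes described here, and whether the transgene carries Adipoq sequence that the probe set reads is not stated by the labels. The RNA came from bulk tissue, in which fewer cells of a type and less RNA per cell cannot be told apart.

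Adiponectin, encoded by Adipoq, is made almost entirely by fat cells, is assembled into multimers in the endoplasmic reticulum before secretion, and acts through the receptors encoded by Adipor1 and Adipor2. T-cadherin (Cdh13) binds its large multimers and is found on endothelium and muscle. Leptin (Lep) reports the size of fat stores to the brain through the leptin receptor (Lepr), and resistin (Retn) is a cysteine-rich hormone that mouse fat cells secrete. Chemerin (Rarres2) is a chemoattractant and adipokine. Nampt makes nicotinamide mononucleotide for NAD synthesis inside cells and is also released, under the name visfatin.

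Tfg, the targeted gene, checks the labels and its signal was no lower in the group labelled KO. It was 7.99, 8.21 and 8.03 on the log2 scale on the KO-labelled arrays, against 7.97, 7.94 and 7.91 on the WT-labelled arrays. Every KO-labelled value lay above every WT-labelled one, by a small margin. The difference of 0.14 ± 0.11 (SE, n = 3 each) missed the threshold in limma (adjusted p = 0.345). With each array centred on 12 housekeeping genes it was -0.70 (adjusted p = 0.023). Under that scaling 85.9% of all probe sets were called lower and the median change was -1.20, so Tfg fell less than the median probe set. Cells of the depot that do not express Cre keep Tfg, so bulk RNA gives only a limited check of the labels. Where the probe set lies relative to the deleted part of the gene is not stated by the labels, and the groups are named below by their labels.

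Arrays of the KO-labelled group differed more among themselves than those of the WT-labelled group. KO 2 correlated with KO 1 and KO 3 at 0.960 and 0.965 over all probe sets, while KO 1 and KO 3 correlated at 0.986 and the WT-labelled arrays at 0.984 to 0.986. Array medians were 6.76, 6.47 and 6.73 in the KO-labelled group, against 6.97, 6.96 and 7.02 in the WT-labelled group. The 12 adipocyte markers, set against the labelled tissue, averaged 11.82, 13.06 and 11.76 on the KO-labelled arrays, against 9.70, 10.05 and 8.64 on the WT-labelled arrays, so fat cell genes were measured in all 6 samples and differed between the groups. The 8 skeletal muscle markers averaged 8.99, 10.85 and 6.92 on the KO-labelled arrays, against 7.03, 6.98 and 6.96 on the WT-labelled arrays. KO 1 and KO 2 therefore stood above all other arrays in muscle genes, and KO 3 did not.

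Most of the adipokine and receptor genes were higher on KO-labelled arrays as deposited. Relative to the mean of the housekeeping genes Lep and Rarres2 changed sign. Adipor1 and Cdh13 did so relative to the median housekeeping level on each array, which falls on different genes between arrays. The median change of the housekeeping genes was 0.878, below the change of Cdh13 (1.09) and close to that of Adipor1 (0.85). Of the 9, 5 rose (Adipoq, Adipor1, Adipor2, Cdh13 and Retn), 0 fell and 4 did not pass limma's test at an adjusted p under 0.05. Over all 65956 probe sets the same test called 5.32% higher and 15.6% lower in the KO-labelled group. Over 19043 protein-coding genes it called 10.7% higher and 10.1% lower. On KO-labelled arrays 7 of the 9 lay entirely above the WT-labelled range, as did 11.1% of all probe sets, and 1 (Lepr) lay entirely below it, as did 44.9% of all probe sets. The median change of the 9 was 1.09 on the log2 scale, against -0.37 over all probe sets and -0.18 over protein-coding genes. That general shift depends on scaling: the median over all probe sets was -0.04 after quantile normalization or median centring and -1.20 after centring on the housekeeping genes. Of all calls, 25.4% were in the higher direction as deposited, as were 64.6% after quantile normalization, 61.2% after median centring and 2.24% after housekeeping centring.

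Leaving out any 1 of the WT-labelled arrays, or KO 3, removed every call, for the 9 genes and for all other probe sets alike. Without WT 1, WT 2 or WT 3, limma called 0 of the 9 genes and 0 probe sets in all, although 6 of the 9 kept an unadjusted p under 0.05 in each case, along with 23757, 25102 and 21579 probe sets. Without KO 3 it also called 0 of the 9 and 0 probe sets in all, with 8 at an unadjusted p under 0.05 and 28697 such probe sets. The smallest adjusted limma p over all probe sets was 0.0997, 0.0824 and 0.114 without WT 1, WT 2 and WT 3, and 0.0624 without KO 3. Leaving out KO 1 gave 6 calls and leaving out KO 2 gave 5, with Nampt added in both and Adipoq lost without KO 2 (change 2.81, adjusted p = 0.0518). KO 2 was the highest KO-labelled array for 8 of the 9 genes, and WT 3 the lowest WT-labelled array for 6.

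**Figure D1:**
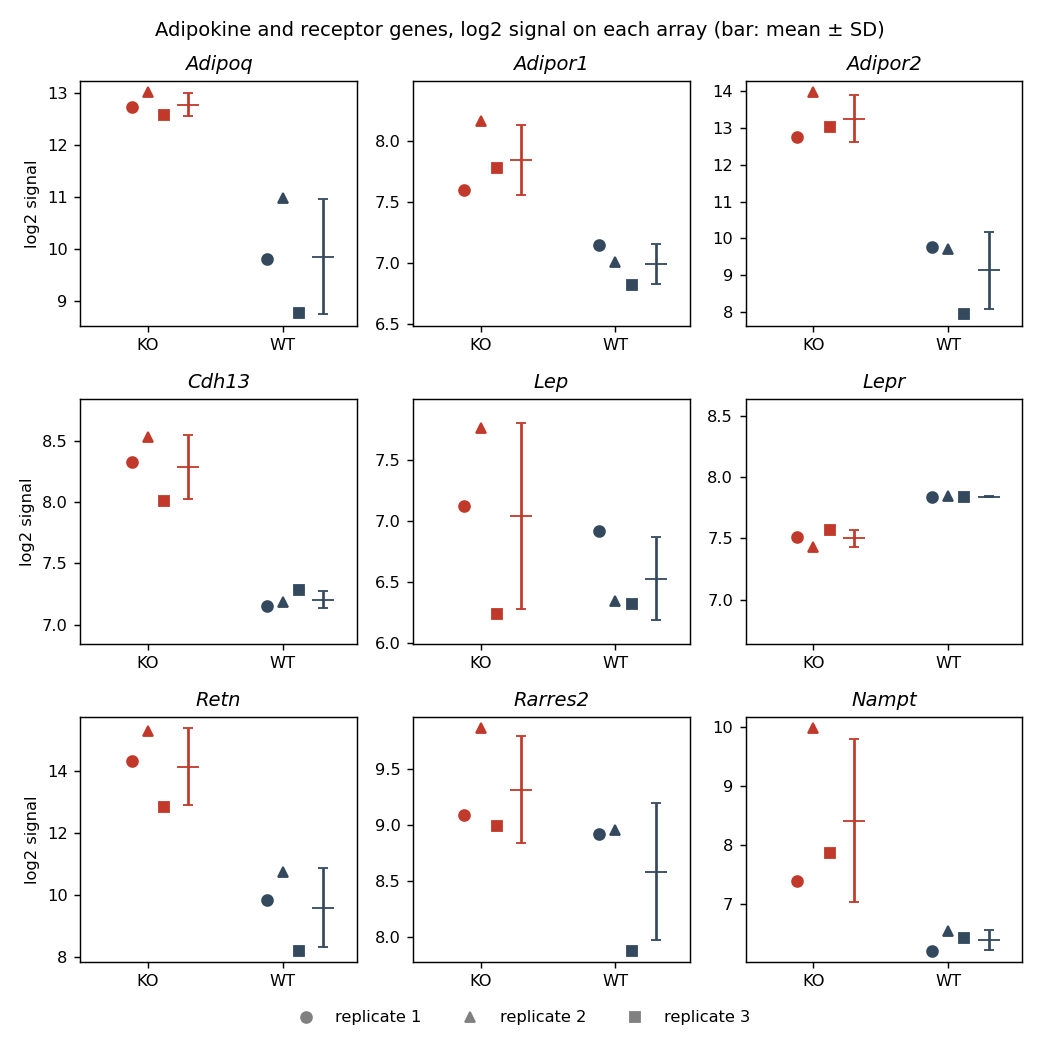
Log2 signal of 9 adipokine and receptor genes on each of 6 arrays (vertical axes, a separate scale per gene), with KO-labelled arrays left of WT-labelled arrays, 1 point per array shaped by replicate number, and bars for the mean ± SD of 3 arrays. On the values as deposited the groups overlap for Lep, and the KO-labelled arrays lie below the WT-labelled arrays for Lepr and above them for the other 7. Relative to the mean of the housekeeping genes Lep and Rarres2 change sign. Relative to the median housekeeping level on each array, which falls on different genes between arrays, Adipor1 and Cdh13 do too.

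The start-site sequences of genes with a large and with a small difference are shown first, because the windows differ in base composition and motifs. RefSeq windows of 300 bases on GRCm38.p6, from 250 bases before the start site to 50 from it onward, were found for 7 of the 9 genes. They are written 5′ to 3′ on the gene's own strand, and capitals mark matches to the motifs named after them. The Adipoq window is chr16:23146286-23146585 (plus strand), the Retn window chr8:3655520-3655819 (plus), the Adipor2 window chr6:119388685-119388984 (minus) and the Lep window chr6:29059971-29060270 (plus).
Adipoq: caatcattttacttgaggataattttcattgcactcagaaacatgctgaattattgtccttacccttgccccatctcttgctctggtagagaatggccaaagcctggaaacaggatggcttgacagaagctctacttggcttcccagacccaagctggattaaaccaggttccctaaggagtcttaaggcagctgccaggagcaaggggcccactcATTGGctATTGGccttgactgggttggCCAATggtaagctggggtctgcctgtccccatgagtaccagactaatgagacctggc
Retn: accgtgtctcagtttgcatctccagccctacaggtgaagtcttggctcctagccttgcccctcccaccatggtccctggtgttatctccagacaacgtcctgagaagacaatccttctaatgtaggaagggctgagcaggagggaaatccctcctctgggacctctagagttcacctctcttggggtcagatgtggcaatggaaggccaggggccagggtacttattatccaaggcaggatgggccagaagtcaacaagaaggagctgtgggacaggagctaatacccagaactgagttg
Adipor2: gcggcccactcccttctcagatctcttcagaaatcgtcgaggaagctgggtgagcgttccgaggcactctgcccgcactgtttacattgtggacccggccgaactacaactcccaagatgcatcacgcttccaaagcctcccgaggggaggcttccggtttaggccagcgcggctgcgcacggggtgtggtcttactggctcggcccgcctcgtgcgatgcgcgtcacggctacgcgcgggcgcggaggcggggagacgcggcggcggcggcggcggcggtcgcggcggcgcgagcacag
Lep: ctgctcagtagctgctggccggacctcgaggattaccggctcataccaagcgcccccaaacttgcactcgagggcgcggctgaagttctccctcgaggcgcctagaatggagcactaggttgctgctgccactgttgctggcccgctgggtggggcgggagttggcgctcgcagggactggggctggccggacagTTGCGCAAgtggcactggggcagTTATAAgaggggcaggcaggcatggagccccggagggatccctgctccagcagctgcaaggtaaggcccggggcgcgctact
The Adipoq and Retn windows are poor in CG dinucleotides, with 0 and 2, whereas the Adipor2 and Lep windows hold 41 and 19. The median of all 32851 windows is 7. Their GC content is 50% (Adipoq), 54% (Retn), 68.7% (Adipor2) and 66% (Lep), against a median of 52.7%.

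Both strands of each window were searched for 6 motifs. The nuclear receptor half-site AGGTCA is in 16.3% of all windows, the C/EBP motif TTGCNNAA in 10.8%, the SREBP motif TCACNCCAC in 1.24%, the E-box CACGTG in 7.15%, the TATA element TATAA in 24.9% and the CCAAT box CCAAT in 37.4%. In the Adipoq window 3 CCAAT matches start at -34 and -27 (reverse strand, read as ATTGG) and at -7 (forward strand), counted from the start site. In the Lep window a C/EBP match starts at -55 and a TATA match at -31, which overlaps a reverse-strand match at -32. The Retn and Adipor2 windows hold 0 matches to these letters, and the Adipor2 start site shown lies inside the gene's annotated span. Of the windows not printed, that of Nampt has a half-site that starts at -151. An Adipor1 window holds CCAAT matches at -51 and -2 and a Lepr window another at -195, all on the reverse strand. Another Lepr window holds a C/EBP match at 20, past the start site, so neither motif is particular to Adipoq or Lep. The TATA and CCAAT motifs were added after the windows had been read, and a match is a string of letters and not a shown binding site.

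Adipoq rose on the KO-labelled arrays. Its log2 signal was 12.73, 13.01 and 12.57 in the KO-labelled group, 12.77 ± 0.22 (SD, n = 3), against 9.80, 10.97 and 8.76 in the WT-labelled group, 9.84 ± 1.11 (SD, n = 3). The KO-labelled arrays were close together, the WT-labelled arrays spread over 2.21, and the nearest values of the 2 groups were 1.60 apart. The change was 2.93 ± 0.54 (SE), a 7.60-fold higher signal with a 95% confidence interval of 3.07 to 18.8 (limma, adjusted p = 0.0356). It was the 104th largest rise of 19043 protein-coding genes, and it ranged between 2.39 and 3.49 when 1 array was left out.

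Adipor2, the receptor best known from liver, had the second largest change of the 9 genes. Its signal was 12.76, 13.98 and 13.03 in the KO-labelled group, against 9.77, 9.70 and 7.93 in the WT-labelled group. All KO-labelled arrays were far above all WT-labelled arrays, with 2.99 between the nearest values, and WT 3 lay below the other WT-labelled arrays. The means were 13.26 ± 0.64 and 9.13 ± 1.04 (SD, n = 3 each) in the KO-labelled and WT-labelled groups. The change of 4.12 ± 0.58 (SE) is a 17.4-fold higher signal (95% interval 6.53 to 46.5, limma, adjusted p = 0.0354). It ranked 22 among protein-coding genes and was 3.52 without WT 3.

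Adipor1, the receptor best known from muscle, rose far less. Its signal was 7.60, 8.16 and 7.78 in the KO-labelled group, 7.85 ± 0.29 (SD, n = 3), against 7.15, 7.01 and 6.82 in the WT-labelled group, 6.99 ± 0.17 (SD, n = 3). The groups did not overlap, and 0.45 separated the nearest arrays. The change was 0.85 ± 0.18 (SE), or 1.81-fold (95% interval 1.33 to 2.46, limma, adjusted p = 0.0381). After housekeeping centring it was 0.02 (adjusted p = 0.946), or -0.42 against the median level of those genes on each array. With the replicate number in the fit Adipor1 was the 1 gene of the 5 that no longer passed.

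Cdh13 rose with a narrow spread in both groups. Its signal was 8.33, 8.53 and 8.01 on the KO-labelled arrays, 8.29 ± 0.26 (SD, n = 3), against 7.15, 7.18 and 7.28 on the WT-labelled arrays, 7.20 ± 0.07 (SD, n = 3). The lowest KO-labelled array was 0.73 above the highest WT-labelled array. The change was 1.09 ± 0.16 (SE), or 2.12-fold (95% interval 1.62 to 2.78, limma, adjusted p = 0.0354). After housekeeping centring it was 0.25 (adjusted p = 0.371), or -0.19 against the median level of those genes on each array. Of 8 endothelial markers 6 rose as deposited, against 10.7% of protein-coding genes, while Erg (0.16) and Vwf (-0.08) did not pass. The list averaged 8.76, 9.23 and 8.50 on the KO-labelled arrays, against 7.23, 7.26 and 6.999 on the WT-labelled arrays. After housekeeping centring the median change of the 8 markers was 0.777, against 0.25 for Cdh13. The log2 of their summed signal ran between 12.03 and 12.91 in the KO-labelled group and between 10.02 and 10.29 in the WT-labelled group, and their part in the Cdh13 result was not tested. Among them Cdh5, which encodes VE-cadherin, changed by 4.06 ± 0.28 (SE, limma, adjusted p = 0.0346) and Kdr, a VEGF receptor, by 2.48 ± 0.21 (SE, adjusted p = 0.0346).

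Retn had the largest change of the 9 genes. Its signal was 14.34, 15.29 and 12.84 on the KO-labelled arrays, against 9.84, 10.77 and 8.22 on the WT-labelled arrays. Both groups were spread widely, over 2.45 and 2.55, yet the lowest KO-labelled array was 2.07 above the highest WT-labelled array. The means were 14.16 ± 1.24 in the KO-labelled group and 9.61 ± 1.29 in the WT-labelled group (SD, n = 3 each). The change of 4.55 ± 0.84 (SE) is a 23.4-fold higher signal, with a 95% interval of 5.64 to 96.8 (limma, adjusted p = 0.0356), and ranked 9 among protein-coding genes. It was 3.85 without WT 3 and 5.20 without KO 3.

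Lep did not pass the test and is the gene whose groups overlapped. Its signal was 7.12, 7.76 and 6.24 on the KO-labelled arrays, against 6.92, 6.35 and 6.32 on the WT-labelled arrays. KO 3 was the lowest of the 6 and KO 2 the highest. The difference was 0.51 ± 0.40 (SE), with a 95% interval of -0.47 to 1.49 that spans a 0.72-fold to a 2.81-fold signal (limma, adjusted p = 0.328), and after housekeeping centring it was -0.325. It was 0.15 without KO 2, 0.91 without KO 3 and 0.015 with array weights.

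Lepr was the gene whose KO-labelled arrays all lay below the WT-labelled arrays. Its signal was 7.51, 7.43 and 7.57 in the KO-labelled group, against 7.84, 7.85 and 7.84 in the WT-labelled group, whose arrays were nearly equal. The difference of -0.34 ± 0.10 (SE, 95% interval -0.59 to -0.09) did not pass after adjustment (limma, unadjusted p = 0.0156, adjusted p = 0.057). Its size follows the scaling: it was -0.12 after quantile normalization, -0.01 after median centring and -1.175 after housekeeping centring, where it passed (adjusted p = 0.00402). Under that last scaling 85.9% of all probe sets were called lower, and their median change of -1.20 was close to that of Lepr.

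Rarres2 did not pass the test. Its signal was 9.09, 9.86 and 8.99 on the KO-labelled arrays, against 8.92, 8.95 and 7.88 on the WT-labelled arrays. The groups were 0.04 apart at their nearest, with WT 3 well below the rest. The difference of 0.73 ± 0.37 (SE) did not pass (95% interval -0.18 to 1.64, limma, adjusted p = 0.163) and was -0.105 after housekeeping centring. It was 0.38 without WT 3 and 0.46 without KO 2.

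Nampt had the widest spread among the KO-labelled arrays. Its signal was 7.39, 9.97 and 7.87 in the KO-labelled group, 8.41 ± 1.37 (SD, n = 3), against 6.22, 6.55 and 6.44 in the WT-labelled group, 6.40 ± 0.17 (SD, n = 3). KO 2 stood well above the other KO-labelled arrays, and all 3 exceeded the WT-labelled arrays by at least 0.84. The WT-labelled values were dim, below the medians of those arrays (6.97, 6.96 and 7.02). The difference was 2.01 ± 0.65 (SE), or 4.02-fold (95% interval 1.33 to 12.1), and did not pass (limma, unadjusted p = 0.0215, adjusted p = 0.0658). Without KO 2 it was smaller, 1.23, and passed (adjusted p = 0.0272).

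**Figure D2:**
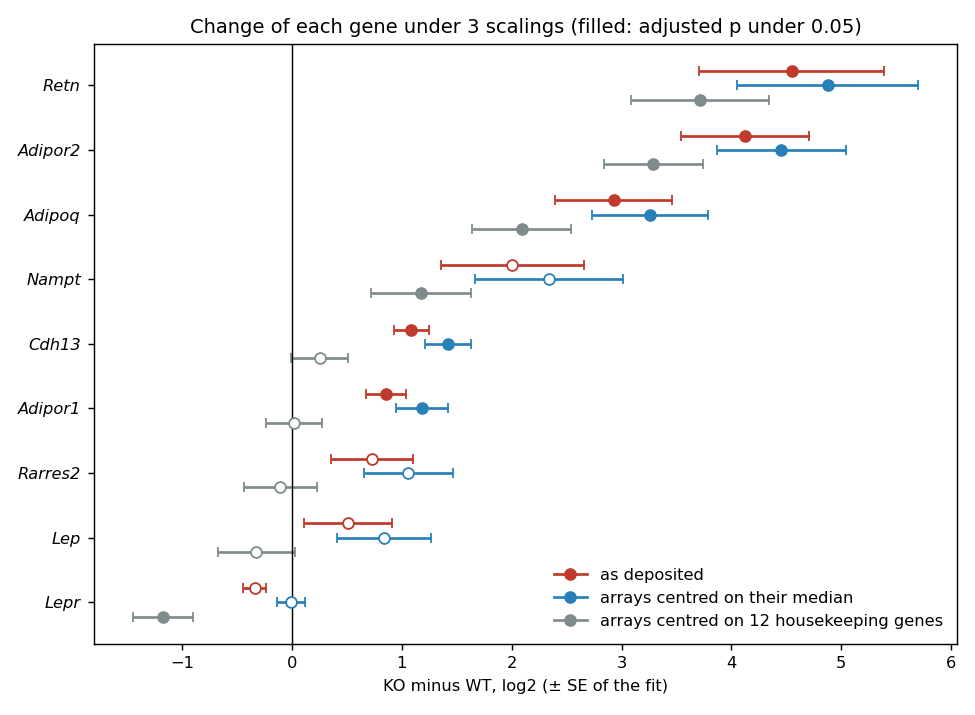
Change of each gene (horizontal axis, KO minus WT on the log2 scale, ± SE of the limma fit) on the values as deposited, with each array centred on its median, and with each array centred on 12 housekeeping genes; filled points have an adjusted p under 0.05. Retn, Adipor2 and Adipoq stay filled under all 3, Adipor1 and Cdh13 do so under 2, and Lep and Rarres2 turn negative with housekeeping centring.

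The arrays of the 2 groups differed in level even for genes used as internal standards, so each gene was also read against those genes on its own array. The 12 housekeeping genes averaged 9.60, 10.16 and 9.74 on the KO-labelled arrays, against 8.98, 9.04 and 8.97 on the WT-labelled arrays. Of the 12, 5 rose, against 10.7% of protein-coding genes called higher. Their changes were uneven, from 0.11 for Gusb to 2.17 for Actb, so their mean is not a shift that all 12 share. Relative to their mean, Adipoq differed by 2.09, Adipor2 by 3.29, Retn by 3.71 and Nampt by 1.17, with every KO-labelled array above every WT-labelled one. Lepr differed by -1.175, with every KO-labelled array below, close to the median of -1.20 over all probe sets after housekeeping centring. The exact 2-sided permutation p of these 5 was 0.1, the smallest that 3 against 3 arrays allow, and 0.18 after adjustment over 9 genes. Adipor1 (0.02), Cdh13 (0.25), Lep (-0.325) and Rarres2 (-0.105) overlapped between the groups, with exact permutation p-values of 0.8, 0.2, 0.6 and 0.8. Nampt's value rested largely on KO 2 and was 0.554 without it. Against the median housekeeping level on each array in place of the mean, Nampt differed by 0.73, Adipor1 by -0.42 and Cdh13 by -0.19. Lep differed by -0.77, Rarres2 by -0.55 and Lepr by -1.62. That median is the middle of 12 levels and falls on different genes on different arrays. The median change of the 12 genes was 0.878, against changes of 0.85 for Adipor1 and 1.09 for Cdh13.

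A second reading, added after the values had been seen, set each gene against the mean of 12 adipocyte markers on the same array, whose list mean differed by 2.75. Relative to these markers Adipoq was 0.91, -0.05 and 0.81 on the KO-labelled arrays, against 0.10, 0.92 and 0.12 on the WT-labelled arrays. The difference was 0.17 with overlapping groups (exact permutation p = 1.0). With 3 arrays a group and SDs of 0.53 and 0.47, this overlap cannot show that Adipoq followed the markers. Between KO 1 and KO 2 the marker mean went from 11.82 to 13.06 and Adipoq from 12.73 to 13.01. Retn and Adipor2 differed by more than the markers, by 1.79 and 1.37, with the KO-labelled arrays all above. Adipor1 (-1.90), Cdh13 (-1.67), Lep (-2.24), Lepr (-3.09) and Rarres2 (-2.02) differed by less than the markers, with the KO-labelled arrays all below. For these 7 genes the exact permutation p was 0.1, or 0.129 after adjustment over 9 genes. Nampt differed by -0.75 and overlapped (exact permutation p = 0.3). Tfg, read in the same way, differed by -2.62, with the KO-labelled arrays all below (exact permutation p = 0.1), where the marker mean itself differed by 2.75.

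**Figure D3:**
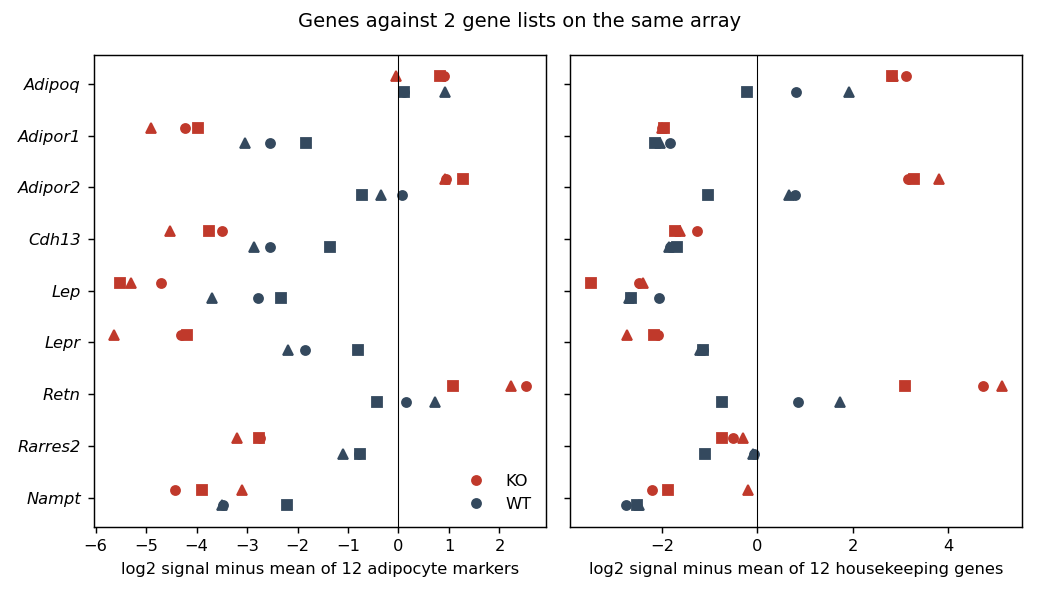
Log2 signal of each gene minus the mean of 12 adipocyte markers (left) and minus the mean of 12 housekeeping genes (right) on the same array, with 1 point per array and the KO-labelled arrays drawn above the WT-labelled arrays for each gene. Against adipocyte markers Adipoq overlaps between the groups and Retn and Adipor2 lie higher on the KO-labelled arrays; against housekeeping genes Adipor1, Cdh13, Lep and Rarres2 overlap.

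On KO 3 the muscle markers averaged close to the WT-labelled level. KO 3 minus the WT-labelled mean was 2.73 for Adipoq, 0.79 for Adipor1, 3.90 for Adipor2, 0.81 for Cdh13 and 3.23 for Retn. It was 1.47 for Nampt and 0.41 for Rarres2, and -0.29 for Lep and -0.27 for Lepr. These are values of 1 sample without a test.

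Other cells of the depot were followed through marker lists chosen with earlier results of these data known. Of the 12 adipocyte markers 9 rose and 0 fell, with a median change of 2.56, and without KO 2 limma called 7 higher. Over protein-coding genes 10.7% were called higher as deposited, and over all probe sets 5.32%. Pparg, the master regulator of fat cell identity, changed by 3.66 ± 0.42 (SE, limma, adjusted p = 0.0354) and Adig by 2.31 ± 0.27 (SE, adjusted p = 0.0354). The log2 of the summed adipocyte signal was 18.92, 19.78 and 18.91 on the KO-labelled arrays, against 17.23, 18.03 and 14.68 on the WT-labelled arrays. That sum is almost entirely Fabp4, with 18.78, 19.57 and 18.78 on the KO-labelled arrays, against 17.14, 17.96 and 14.45 on the WT-labelled arrays, which itself did not pass (limma, adjusted p = 0.0769). The part of these markers in the changes of Adipoq, Adipor2 and Retn was not tested beyond the differences given relative to them. Of the 8 macrophage markers 2 rose (Lyz2 and C1qb), of the 6 measured progenitor markers 1 (Dcn), and of the 5 smooth muscle markers 2 (Rgs5 and Acta2), with 0 falling in each list. Counts this small were not tested against the 10.7% of protein-coding genes called higher. C1qb turned to -0.03 after housekeeping centring, and C1qb and Acta2 lost their calls without KO 2 (adjusted p = 0.0645 and 0.0969). Progenitor markers moved both ways, with a median change of 0.09: Dpp4 differed by -0.41 (adjusted p = 0.0724) and Pi16, named after its value was seen, by -0.32 (adjusted p = 0.0929), both with every KO-labelled array below the WT-labelled arrays. Of the 6 measured lymphocyte markers 2 fell (Cd79a and Ms4a1) and of the 5 epithelial markers 1 fell (Krt14), with 0 rising, against 10.1% of protein-coding genes and 15.6% of probe sets called lower. Without KO 2, limma called 0 of these markers lower, with adjusted p-values of 0.0543 for Cd79a, 0.062 for Ms4a1 and 0.0527 for Krt14. The lymphocyte median was -0.52 as deposited and -0.19 after quantile normalization, and the epithelial median -0.31 as deposited, -0.02 after quantile normalization and 0.02 after median centring. Limma called 0 of 8 skeletal muscle markers, of which 0 had an unadjusted p under 0.05, and 0 of 3 Schwann cell markers, of which 1 did. Skeletal muscle summed to 12.67, 14.86 and 10.04 on the KO-labelled arrays, against 10.15, 10.08 and 10.03 on the WT-labelled arrays on the log2 scale. The table holds no 0 and no detection call, so whether a dim marker is absent cannot be read from it.

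**Figure D4:**
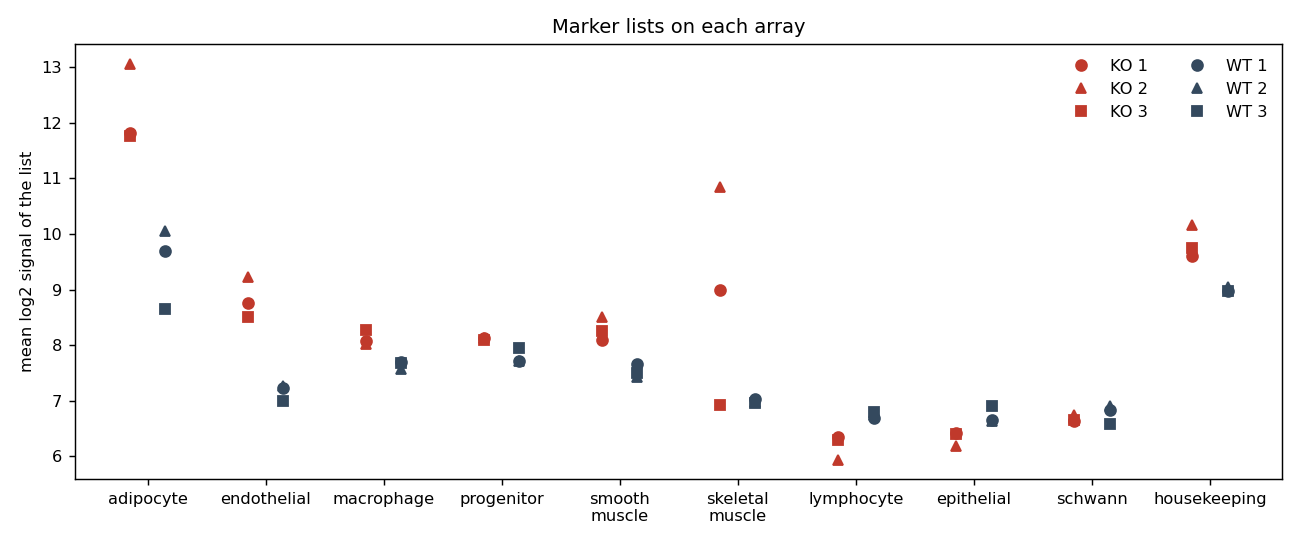
Mean log2 signal of each marker list and of the housekeeping list (vertical axis) on each of 6 arrays, with the KO-labelled arrays left of the WT-labelled arrays in each list. As deposited, the adipocyte, endothelial, macrophage, progenitor, smooth muscle and housekeeping means lie higher on all KO-labelled arrays, the lymphocyte and epithelial means lie lower on all of them, and skeletal muscle is raised on KO 1 and KO 2; relative to the housekeeping genes the macrophage, progenitor and smooth muscle medians turn negative, and with median centring the epithelial median turns positive.

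The wider adipokine pathways were described with 9 lists of 101 genes, of which 92 were measured. Of the 92, 12 rose (13.0%) and 4 fell (4.35%), against 10.7% and 10.1% of protein-coding genes, and 76 did not pass. After housekeeping centring 5 of the 92 were called higher and 56 lower, where 1.97% of all probe sets were called higher and 85.9% lower. No gene stands in more than 1 of these lists.

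Genes that fold and release adiponectin from the endoplasmic reticulum were mostly higher as deposited. Of 8 measured genes 3 rose and 0 fell, against 10.7% of protein-coding genes called higher. The median change was 0.84 as deposited and 0.005 after housekeeping centring. With that centring 1 was called higher and 1 lower, where 1.97% of all probe sets were called higher and 85.9% lower. P4hb, a protein disulphide isomerase, had 9.57, 10.50 and 9.85 on the KO-labelled arrays, against 7.77, 8.01 and 7.43 on the WT-labelled arrays, a 4.71-fold higher signal (limma, adjusted p = 0.0354). Erp44, which retains adiponectin in the early secretory pathway through disulphide bonds, had 8.11, 8.48 and 8.04 on the KO-labelled arrays, against 7.07, 7.15 and 7.16 on the WT-labelled arrays, or 2.12-fold (adjusted p = 0.0354). Hspa5, the chaperone BiP, rose by 1.35 ± 0.28 (SE, adjusted p = 0.037). For all 3 the KO-labelled arrays lay wholly above the WT-labelled arrays as deposited. After housekeeping centring their changes were 1.40 (P4hb), 0.25 (Erp44) and 0.52 (Hspa5). Gstk1, also called DsbA-L and known to assist adiponectin multimerization, differed by 1.56 ± 0.43 (SE) and missed the threshold (adjusted p = 0.0503).

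Downstream of the adiponectin receptors, 4 of 11 measured genes rose and 0 fell, against 10.7% of protein-coding genes called higher. The median change was 0.54 as deposited and -0.295 after housekeeping centring. With that centring 1 was called higher and 1 lower, where 1.97% of all probe sets were called higher and 85.9% lower. Prkaa1, a catalytic subunit of the energy sensor AMPK, had 8.57, 10.05 and 8.39 on the KO-labelled arrays, against 7.23, 7.53 and 6.96 on the WT-labelled arrays (limma, adjusted p = 0.0459). Prkag1, a regulatory subunit of the same kinase, averaged 9.53 ± 0.79 on the KO-labelled arrays, against 8.04 ± 0.23 on the WT-labelled arrays (SD, n = 3 each, adjusted p = 0.0477). Asah1, an acid ceramidase, rose by 1.32 ± 0.29 (SE, adjusted p = 0.0391). Appl1, the adaptor that binds the receptors, rose by 0.91 ± 0.24 (SE, adjusted p = 0.0474), which became 0.07 after housekeeping centring.

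Adipor1 and Adipor2 belong to the progestin and adipoQ receptor family, and their 9 relatives were measured too. Limma called 0 of these 9, of which 3 had an unadjusted p under 0.05. Their median change was -0.29 as deposited, 0.03 after quantile normalization and 0.04 after median centring. Mmd differed by 0.47 (adjusted p = 0.0566), Paqr8 by -0.50 (adjusted p = 0.0683), Paqr6 by -0.46 (adjusted p = 0.0999) and Paqr7 by -0.29 (adjusted p = 0.106). The difference between Adipor2 and its relatives was not tested.

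In the leptin signalling list 3 of 13 genes rose and 0 fell, against 10.7% of protein-coding genes called higher, while Lep and Lepr themselves did not pass. After housekeeping centring 1 was called higher and 5 lower, where 1.97% of all probe sets were called higher and 85.9% lower. The list's median change was then -0.485, against 0.35 as deposited. Irs2, an insulin receptor substrate that leptin signalling also uses, had 10.82, 12.25 and 9.95 on the KO-labelled arrays, against 8.73, 8.31 and 8.21 on the WT-labelled arrays. Every KO-labelled array was above the WT-labelled range, a 6.02-fold higher signal (95% interval 2.31 to 15.7, limma, adjusted p = 0.0385). Ptpn11, the phosphatase SHP2, rose by 1.29 ± 0.31 (SE, adjusted p = 0.0421). Stat3, the main transcription factor of leptin signalling, rose by 0.58 ± 0.15 (SE, adjusted p = 0.045) as deposited and was -0.26 after housekeeping centring. Stat5b differed by 0.38 ± 0.14 (SE, adjusted p = 0.0784).

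Among the partners of chemerin and the relatives of resistin limma called 0 of 8, and 1 had an unadjusted p under 0.05. Cap1, described as a receptor of human resistin, differed by 0.42 (adjusted p = 0.0964), the resistin-like genes Retnla and Retnlg by 0.62 (adjusted p = 0.123) and -0.40 (adjusted p = 0.108), and the chemerin-binding receptor Ccrl2 by -0.25 (adjusted p = 0.168). The list's median change was -0.09 as deposited and 0.24 after median centring. The difference between Retn and these relatives was not tested.

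The alternative complement pathway, in which the protease adipsin (Cfd) works, had 9 measured genes. Limma called 0, of which 3 had an unadjusted p under 0.05, and the median change was -0.29 as deposited and 0.04 after median centring. Hc (complement C5) differed by -0.52 (adjusted p = 0.0515), Masp1 by -0.54 (adjusted p = 0.0756), Cd55, an inhibitor of complement on cell surfaces, by 0.69 (adjusted p = 0.0751), and properdin (Cfp) by 0.40 (adjusted p = 0.106).

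Genes of NAD synthesis and use, the pathway of Nampt, numbered 11, of which 0 rose and 1 fell, against 10.1% of protein-coding genes called lower. Nmnat2, which makes NAD from the product of Nampt, had 6.87, 6.38 and 6.93 on the KO-labelled arrays, against 7.28, 7.38 and 7.64 on the WT-labelled arrays (change -0.71 ± 0.19, SE, limma, adjusted p = 0.0494). Its KO-labelled arrays were all below the WT-labelled arrays, though it was not called after quantile normalization or median centring, where the change was -0.40 and -0.38, nor without KO 2 (adjusted p = 0.0637). Nmrk2 (-0.39, adjusted p = 0.0869), Nadsyn1 (-0.31, adjusted p = 0.0978) and Qprt (-0.34, adjusted p = 0.112) did not pass. The median change of the list was -0.12 as deposited and 0.21 after median centring.

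The C1q/TNF-related proteins, which resemble adiponectin in structure, had 8 measured genes. Limma called 0 of 8, of which 2 had an unadjusted p under 0.05, and the median change was -0.19 as deposited and 0.14 after median centring. C1qtnf3 differed by -0.39 (adjusted p = 0.0704), C1qtnf12 by 0.31 (adjusted p = 0.0745), C1qtnf2 by -0.26 (adjusted p = 0.136) and C1qtnf4 by -0.23 (adjusted p = 0.156). The difference between Adipoq and these genes was not tested.

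Among 15 other measured factors that fat secretes, 2 rose and 3 fell, against 10.7% of protein-coding genes called higher and 10.1% called lower. Angptl4, an inhibitor of lipoprotein lipase, had 9.87, 11.21 and 9.68 on the KO-labelled arrays, against 7.99, 8.06 and 7.55 on the WT-labelled arrays, or 5.23-fold higher (limma, adjusted p = 0.0354). Rbp4, the retinol carrier, had 11.35, 11.59 and 10.74 on the KO-labelled arrays, against 8.98, 10.20 and 8.34 on the WT-labelled arrays, or 4.15-fold (adjusted p = 0.0422). For both, the KO-labelled arrays were all above the WT-labelled arrays, with WT 2 nearest to them, and Rbp4 lost its call without KO 2 (adjusted p = 0.0887). Itln1, the adipokine omentin, fell by 0.78 on the log2 scale (adjusted p = 0.0453), and the inflammatory cytokine Il6 fell by 0.48 (adjusted p = 0.0386). Tnf, named here after its value was seen because it completes the count of 3, fell by 0.60 (adjusted p = 0.0464) and lost its call without KO 2 (adjusted p = 0.0846). These 3 kept a negative sign after quantile normalization and median centring, at -0.12 to -0.45, but were not called there. As deposited, the median change over all probe sets was -0.37. Il6 and Itln1 were dim, with means of 5.58 and 5.65 on the KO-labelled arrays and 6.06 and 6.43 on the WT-labelled arrays, below the array medians of 6.47 to 7.02. The list's median change was -0.22 as deposited and 0.11 after median centring.

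**Figure D5:**
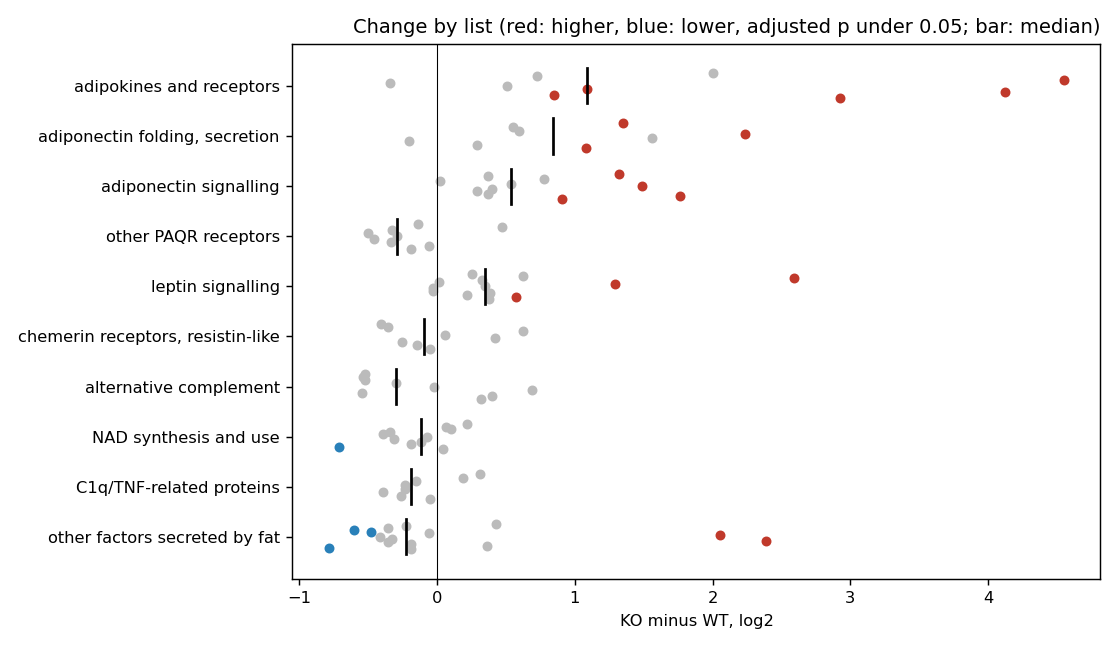
Change of each gene (horizontal axis, KO minus WT on the log2 scale, as deposited) in the adipokine and receptor genes and in 9 pathway lists, with 1 point per gene, red for an adjusted p under 0.05 and higher, blue for lower, and a bar at each list's median. Red points sit in the folding, adiponectin signalling, leptin signalling and other secreted lists; after housekeeping centring the medians of all lists but the top 2 lie below 0.

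The genes whose pattern over the 6 arrays was most like that of 3 adipokines were found among 20483 genes, as a description in which all points share the same 6 arrays and the difference between the groups. For Adipoq they were Bloc1s4 (r = 0.998), Cox8a (r = 0.997) and Snord70 (r = 0.992), and 308 genes exceeded 0.95. Cox8a, a subunit of cytochrome c oxidase, had 12.21, 12.85 and 12.22 on the KO-labelled arrays, against 9.58, 10.71 and 8.76 on the WT-labelled arrays, so it repeated the order of the WT-labelled arrays seen for Adipoq. For Lep they were Ecsit (r = 0.990), Ecm2 (r = 0.990) and Rnf7 (r = 0.988), with 37 genes above 0.95. For Nampt they were Slc36a4 (r = 0.998), R3hdm1 (r = 0.998) and Chst15 (r = 0.998), with 1736 genes above 0.95, a set in which KO 2 stands apart.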

How the data were processed

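Total RNA of inguinal white fat from 6 mice was labelled with biotin and hybridised to whole-transcript arrays, per the labels. Each deposited value is a log2 signal of 1 probe set, made by the authors with Transcriptome Analysis Console, per the submitters' processing notes. How background was corrected and arrays were normalized is not stated by the labels. Values ran from 2.81 to a ceiling of 19.93, which 222 probe sets reached on all arrays and 0 of the genes described on any. The number of arrays limits the precision. No scan date, slide or detection call was used.

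Probe sets with exactly 1 symbol in GEO's platform annotation (30604 of 65956, against 2146 with several and 33206 with none) were named, and 827 symbols were updated through RefSeq. A gene was read by its brightest probe set. KO-labelled and WT-labelled arrays were compared with limma 3.58.1 (lmFit, eBayes without trend, R 4.3.3), with Benjamini-Hochberg adjustment over all 65956 probe sets and calls at an adjusted p under 0.05. Exact 2-sided permutation tests used scipy 1.17.1. The fit was tested on simulated data. Tables were made with pandas 2.3.3 and numpy 2.4.6 in python 3.11.15, plots with matplotlib 3.10.9, and limma used statmod 1.5.0.

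The members, gene lists and tests were chosen with earlier results of these data known. From each pathway list up to 4 genes, and from each marker list up to 2, with the smallest p were named, and Adipoq, Lep and Nampt were each given their 3 most similar genes. Alternatives covered scaling (quantile, median, housekeeping genes), a filter on dim probe sets, variance models, array weights, a block for the replicate number, only probe sets with 1 symbol, a threshold of 0.1, and leaving out arrays. Promoters and their coordinates come from RefSeq on GRCm38.p6, which is independent of the array values, and no label names the authors' build.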

Additional observations from a re-analysis of the deposited data

How the results depend on the processing

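Over 143 tested values of the 9 genes under alternatives, 104 kept direction and side of the threshold, 29 no longer passed, 8 newly passed and 2 changed sign. The sign changes were Lep (-0.325) and Rarres2 (-0.105) with housekeeping centring, where Tfg also turned (-0.70) and the median over all probe sets was -1.20. Read against the median housekeeping level on each array, which falls on different genes between arrays, Adipor1 (-0.42) and Cdh13 (-0.19) turned as well. Lepr then differed by -1.62. The cause was not tested. Dropping 1 array gave 0 to 6 of the 9 genes called higher, 0 to 11 pathway genes higher and 0 to 2 lower, and 0 to 3469 probe sets higher and 0 to 10697 lower. Leaving out KO 2 and WT 3 together, chosen after seeing the data, gave 0 in each of these counts, with 7 of the 9 genes and 20784 probe sets at an unadjusted limma p under 0.05 and a smallest adjusted p of 0.0539. The count of genes called lower was 1 (Lepr) with housekeeping centring, without dim probe sets, with array weights, with 1-symbol probe sets and at an adjusted p under 0.1. Array weights and housekeeping centring also called Nampt higher. Lep was not tested without dim probe sets, and averaging probe sets was the same value because each gene had 1. Pathway genes called higher numbered 19 with median centring, 5 with housekeeping centring and 19 with array weights, against 12. Those called lower numbered 0 with quantile normalization, 0 with median centring, 56 with housekeeping centring, 2 without dim probe sets, 8 with array weights and 0 with the replicate block, against 4. Probe sets called higher numbered 1301 with housekeeping centring, against 3509. Those called lower numbered 2212 with quantile normalization, 3259 with median centring, 56681 with housekeeping centring, 17432 with array weights and 6642 of the 30604 with 1 symbol, against 10282.

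The labels number the arrays 1 to 3 in both groups. Same-numbered arrays deviated from their group means with correlations of 0.0015, 0.205 and 0.139, and differently numbered ones with -0.216 to 0.171, so the numbers were not taken as pairs. With the replicate block 4 of the 9 genes were called higher (Adipor1 no longer passed), and 2960 probe sets were called higher and 8267 lower. Without detection calls, how far dim genes such as Lep, and Nampt on the WT-labelled arrays, lie above background could not be told.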
